A study of Homo sapiens with 17 samples.

Results

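KCNQ1OT1 is a long noncoding RNA, described here by the eCLIP peaks that lie on it. Members were the peaks on chromosome 11, minus strand, whose midpoint fell in hg19 chr11:2629558-2721228, a span of 91.7 kb from which the annotated RNA is transcribed. There were 335 such peaks among 389788 deposited peaks in 11 lists. The RNA was chosen from these same folds and peak counts, so its values are given as a description, with no test. eCLIP fixes proteins to RNA with ultraviolet light (here 254 nm, 400 mJ per square cm), precipitates 1 protein with an antibody, and sequences the bound RNA fragments. All libraries came from 293T, an established human embryonic kidney line, with an antibody against the cells' own AIFM1, NUMA1, RANGAP1, RNF219, VIM or ZNF184. RNF219 was precipitated in 1 library and every other protein in 2 replicates. Each protein had 1 size-matched input, RNA from the same gel window (reaching 75 kDa above the protein) without precipitation, so both replicates of a protein share an input. No other treatment or genotype separates the groups. Peak lists do not measure expression, so marker genes of the line were not checked.

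As background, KCNQ1OT1 is an unspliced nuclear RNA. It starts at an imprinting centre inside an intron of KCNQ1, a potassium channel gene, and runs antisense to that gene. It is made from the paternal allele and acts in cis to keep neighbouring imprinted genes silent on that chromosome, among them the cell cycle inhibitor CDKN1C. Loss of this pattern is found in Beckwith-Wiedemann syndrome. Of the proteins, AIFM1 is a mitochondrial flavoprotein, NUMA1 a nuclear protein that gathers at spindle poles in mitosis, RNF219 a RING finger protein and VIM an intermediate filament protein. RANGAP1 switches the nuclear transport GTPase Ran to its GDP form, and ZNF184 has zinc fingers.

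The peaks on this RNA held few reads. The lists give each peak's log2 fold over the size-matched input and the -log10 p of that comparison, both computed by the authors, and reads were recovered from these (below). The median peak held 3 or 4 eCLIP reads in 10 libraries and 10 reads in ZNF184 replicate 1. The median number of input reads was between 1 and 3. A peak with an input of 0 reads cannot be told from one with 1 read, and PCR copies may be among the reads, so intervals cover counting error only. Where p did not settle the reads of a peak, the least whole numbers with its ratio are used, and sums over all peaks of a library are therefore "at least".

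ZNF184 replicate 1 stood apart in the number of peaks on the RNA. It had 121, or 1.32 per kb, and its own replicate 2 had 28. NUMA1 had 55 and 19, and RANGAP1 35 and 26. RNF219 had 35 in its 1 library. AIFM1 had 2 and 7, and VIM had 5 and 2. Set against the length of each list, the order changed. Per 10000 deposited peaks, ZNF184 replicate 1 had 19.1 on KCNQ1OT1, RNF219 14.2 and NUMA1 replicate 1 12.3. The other 8 libraries lay between 1.38 in VIM replicate 2 and 6.57 in RANGAP1 replicate 1. ZNF184 replicate 2, at 5.20, was among these, so the ZNF184 pair did not share a level. By protein, the mean was 12.2 ± 9.86 (SD, n = 2) in ZNF184, 9.34 ± 4.18 in NUMA1, 5.81 ± 1.08 in RANGAP1, 3.03 ± 2.33 in VIM and 1.93 ± 0.386 in AIFM1, each with n = 2. The spread of ZNF184 took in the means of NUMA1, RANGAP1 and VIM. Without ZNF184 replicate 1, 214 peaks remained on the RNA.

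Peaks covered little of the transcript. Merged peaks took up 4.15% of its length in ZNF184 replicate 1, 2.55% in NUMA1 replicate 1, and between 0.0644% and 1.62% in the other 9 libraries. Median peak length was 29 nt in ZNF184 replicate 1, the same as over its whole list, and from 29.5 to 40 nt in the others.

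Most peaks on KCNQ1OT1 lay above input, as most peaks of every list did. In ZNF184 it was 111 of 121 (91.7%) in replicate 1 and 21 of 28 (75.0%) in replicate 2, where 89.3% and 87.2% of all deposited peaks lay above input. In NUMA1 it was 54 of 55 and 19 of 19 (whole lists 87.8% and 90.5%), and in RANGAP1 34 of 35 and 26 of 26 (90.3% and 92.5%). RNF219 had 30 of 35 (78.4%). AIFM1 had 2 of 2 and 6 of 7 (88.1% and 80.0%), and VIM 5 of 5 and 2 of 2 (92.5% and 91.5%). ZNF184 replicate 2 was the library with the lowest share on the RNA, from 28 peaks.

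The log2 folds showed the same gap between the ZNF184 replicates. In ZNF184 replicate 1 they ran from -1.43 over a median of 2.18 to 4.25, and in replicate 2 from -1.71 over 0.61 to 3.20. The medians of the whole lists were 1.22 and 1.29. The RNA therefore lay 0.96 above the list in replicate 1 and at -0.68 relative to it in replicate 2, a mean of 0.14 ± 1.16 (SD, n = 2). No other protein had replicates on opposite sides of their lists.

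NUMA1 folds ran from -0.74 over a median of 1.43 to 3.43 in replicate 1, and from 0.44 over 2.08 to 3.25 in replicate 2. These medians were 0.07 and 0.74 above their lists. RANGAP1 folds ran from -0.18 over 1.56 to 2.88 and from 0.42 over 1.42 to 3.15, at 0.32 and 0.00 from their lists. RNF219 folds ran from -0.93 over 1.07 to 2.07, and its median equalled that of its list. The AIFM1 medians were 1.87 and 1.10, from 2 and 7 peaks, and the VIM medians 2.86 and 2.37, from 5 and 2 peaks. Means relative to the list were 0.56 ± 0.20 in AIFM1, 0.40 ± 0.47 in NUMA1, 0.38 ± 0.29 in VIM and 0.16 ± 0.23 in RANGAP1 (SD, n = 2 each), and these ranges of 1 SD overlapped one another and that of ZNF184.

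**Figure D1:**
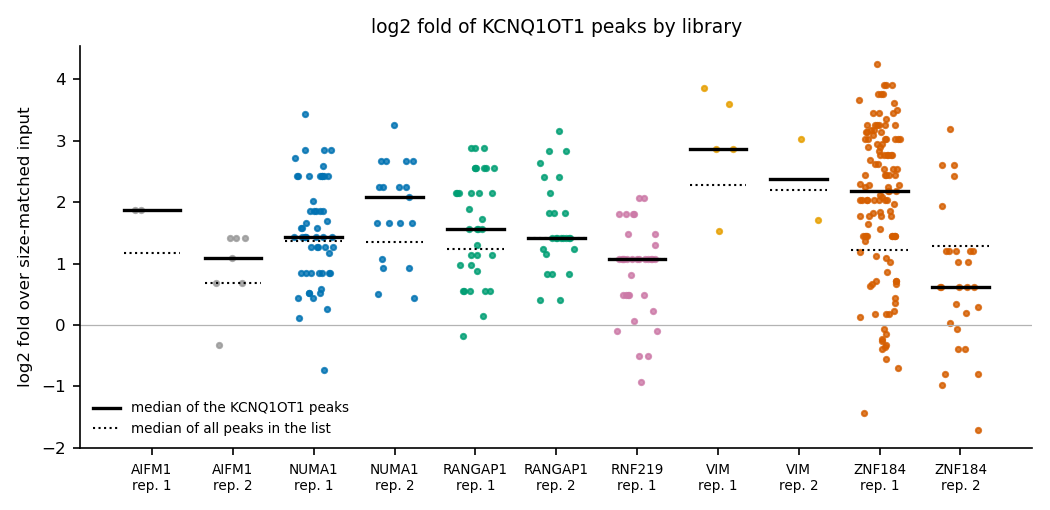
Each point is 1 peak on KCNQ1OT1, with log2 fold over the size-matched input on the y axis and the 11 libraries on the x axis (points spread sideways for sight). Solid bars are medians of these peaks and dotted bars medians of the whole list. ZNF184 replicate 1 (median 2.18) lies above its list (1.22), and replicate 2 (0.61) below its own (1.29).

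Summed over peaks with settled reads, ZNF184 replicate 1 had 1326 eCLIP reads beside 422 input reads, a log2 fold of 2.10 (95% Clopper-Pearson interval 1.94 to 2.26). In replicate 2 it was 78 beside 49, a log2 fold of 1.28 (0.75 to 1.83). These sums leave out peaks below input, whose reads do not settle, so the values run high. Over all peaks, at their least whole numbers, it was 1394 beside 540 reads in replicate 1, a log2 fold of 1.81, and 102 beside 97 in replicate 2, a log2 fold of 0.68. Each sum is over the peaks called in that library, so the replicates are not compared at the same positions. Over settled peaks the NUMA1 values were 1.54 (1.26 to 1.82) and 1.67 (1.18 to 2.15), and in RANGAP1 1.58 (1.15 to 2.03) and 1.53 (1.05 to 2.03). RNF219 was at 1.34 (0.70 to 2.03), and at 0.87 over all its peaks.

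Peaks were called significant where -log10 p and log2 fold both reached 3 (an 8-fold enrichment). Of the 335 peaks, 17 met this, 16 of them in ZNF184 replicate 1 and 1 in NUMA1 replicate 1. The 16 were 13.2% of the ZNF184 replicate 1 peaks on the RNA, where 3.15% of its whole list was significant. The 1 in NUMA1 replicate 1 was 1.82% of 55 peaks, near the 1.51% of its list. ZNF184 replicate 2 had 0 of 28, where 4.82% of its list was significant. There were 0 of 19 in NUMA1 replicate 2 (0.877%), 0 of 35 and 0 of 26 in RANGAP1 (1.52% and 2.99%), 0 of 35 in RNF219 (0.926%), 0 of 2 and 0 of 7 in AIFM1 (0.216% and 0.214%) and 0 of 5 and 0 of 2 in VIM (5.29% and 4.50%). No protein had significant peaks in both replicates, so no site could be significant in both. No site was significant with more than 1 protein, which only the single NUMA1 peak could have given. Like counts over the whole lists are not given here, so neither is read as particular to this RNA. Without ZNF184 replicate 1, a single significant peak remained. The share over the lists is printed for reading only, since these folds led to the choice of the RNA.

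Few peaks outside ZNF184 replicate 1 had the reads to pass. Beside 1 input read, significance took 11 eCLIP reads in ZNF184 replicate 1 and 10 in replicate 2, and 53 and 1 peaks on the RNA had that many. In NUMA1 it took 9 and 7 reads, and 5 and 1 peaks had them. In RANGAP1 it took 10 and 9 reads, in RNF219 18, and in AIFM1 12 and 23, and no peak on the RNA reached these numbers. VIM needed 5 and 6, reached by 1 peak of replicate 1. The reads in a peak depend on binding as well as on depth, and which of these kept peaks below the thresholds was not tested.

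The significant ZNF184 replicate 1 peaks fell in 3 places. A pair lay at the very 5' end. The first, at 0.162 kb from the start (chr11:2721029-2721102), had 28 eCLIP reads beside 3 input reads, a log2 fold of 3.67 (95% interval 1.97 to 6.03). The other, at 0.374 kb (chr11:2720803-2720906), had 32 beside 4, a log2 fold of 3.45 (1.95 to 5.41), and the highest -log10 p on the RNA, 7.98. Another 3 lay between 31.1 and 32.8 kb, with log2 folds of 3.15 to 3.18 from 13 to 20 eCLIP reads.

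The other 11 lay between 40.1 and 49.4 kb from the start, and 7 of them between 40.1 and 42.0 kb. The highest log2 fold on the RNA was at 41.7 kb (chr11:2679541-2679557), at 4.25 (1.54 to 9.66) from 14 eCLIP reads beside 1 input read. Its neighbour at 41.9 kb (chr11:2679298-2679344) had 25 beside 3, at 3.50 (1.79 to 5.88). At 40.8 kb (chr11:2680412-2680447) it was 20 beside 2, at 3.77 (1.73 to 6.91). At 41.6 kb (chr11:2679651-2679698) it was 25 beside 4, at 3.09 (1.56 to 5.07). The remaining 4, between 46.2 and 49.4 kb, had 11 or 13 reads each. Peaks of this library lay a median of 349.5 nt apart along the RNA, and whether neighbouring peaks are separate sites was not tested.

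The significant NUMA1 replicate 1 peak was at 4.26 kb (chr11:2716936-2716994), with 12 eCLIP reads beside 2 input reads and a log2 fold of 3.43 (1.27 to 6.64). Replicate 2 had a peak at the same place, with 4 reads beside 2 and a log2 fold of 2.67, which did not pass.

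**Figure D2:**
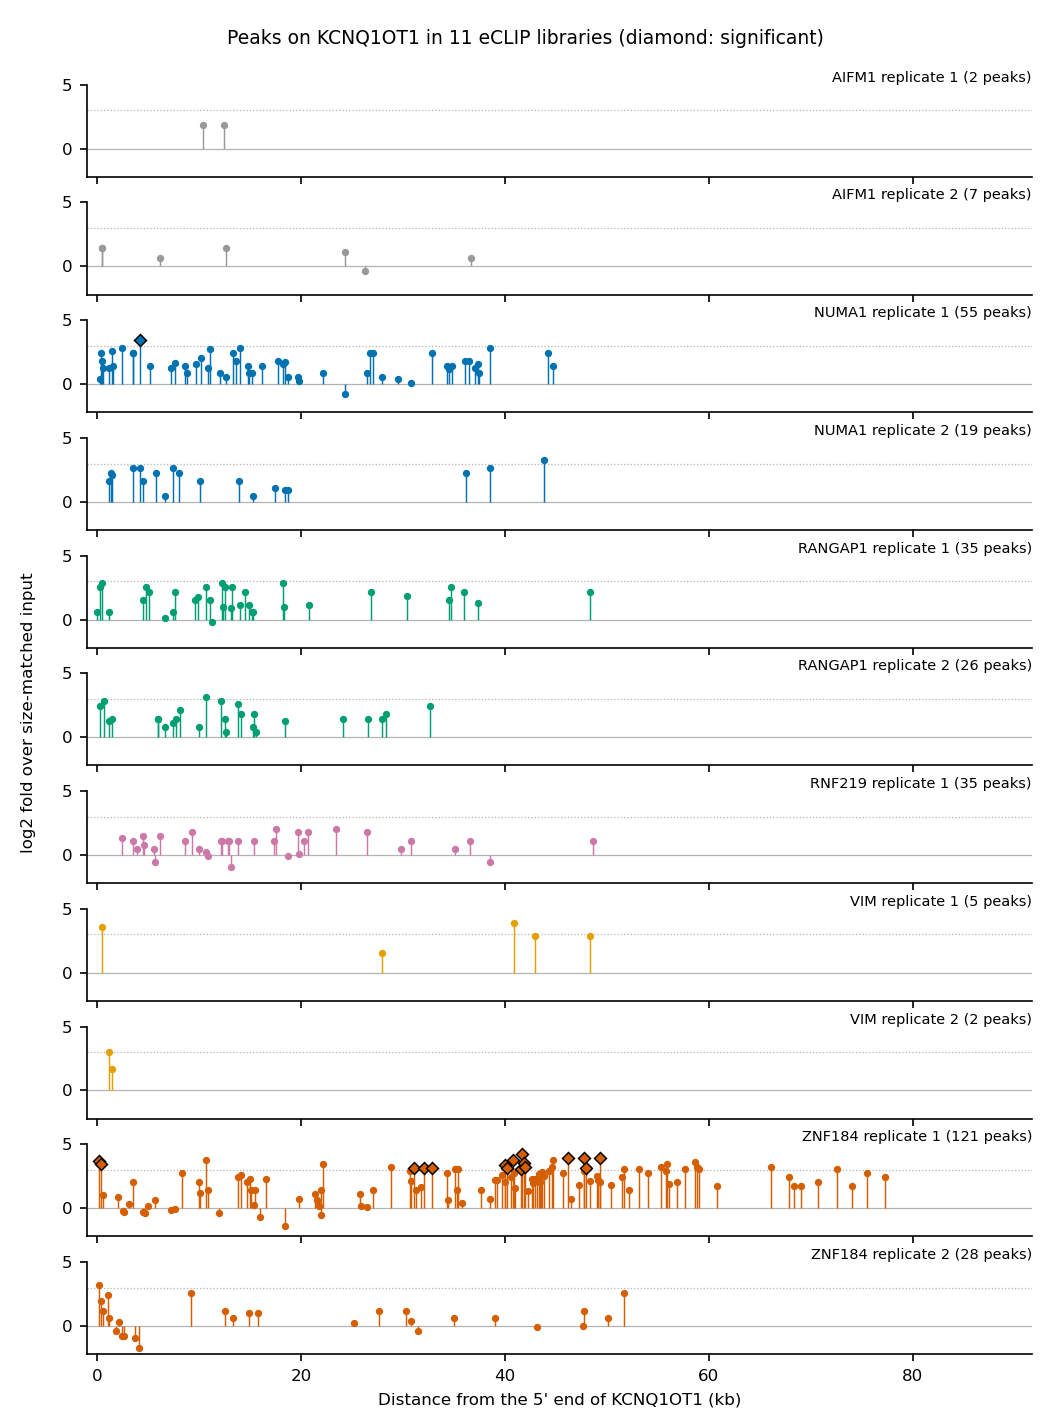
Each stem is 1 peak, placed on the x axis by its distance from the 5' end of KCNQ1OT1 in kb, with its log2 fold over input on the y axis, in 11 rows for the 11 libraries. Diamonds are the 17 significant peaks and the dotted line is a log2 fold of 3. The run between 40 and 60 kb is dense in ZNF184 replicate 1 alone, and no library has a peak past 77315 nt.

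Along the RNA, peaks of most libraries lay near the start. The median distance from the 5' end was 15166.5 and 8046.5 nt in NUMA1, 12587.5 and 12372 nt in RANGAP1, 13126 nt in RNF219, 11391.8 and 12658.5 nt in AIFM1 and 14128 nt in ZNF184 replicate 2. In ZNF184 replicate 1 it was 39988 nt. In VIM it was 40914 and 1306.5 nt, from 5 and 2 peaks. In bins of 10 kb from the start, the 11 libraries had 95, 85, 34, 48, 46, 17, 5 and 5 peaks, then none in the last 2 bins, which end at 91.7 kb. ZNF184 replicate 1 gave 16 of the 95 in the first bin and 35 of the 46 between 40 and 50 kb. From 50 kb on, 25 of 27 peaks were from that library and the other 2 from ZNF184 replicate 2. The last peak lay 14.35 kb short of the annotated 3' end.

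Within ZNF184 replicate 1 the fold was not even along the RNA. The 3 peaks of the first 1 kb had a median log2 fold of 3.45. From 1 to 20 kb the median was 0.78 over 28 peaks, 9 of which lay below input. From 20 to 40 kb it was 1.54 over 30 peaks, from 40 to 50 kb 2.77 over 35, from 50 to 60 kb 3.03 over 15, and past 60 kb 2.24 over 10. All 60 peaks past 40 kb lay above input.

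Reads per peak differed on both sides of the ratio. Input reads per peak were 3.67 in the first 1 kb, 6.86 from 1 to 20 kb, 4.50 from 20 to 40 kb, 4.54 from 40 to 50 kb, 1.87 from 50 to 60 kb and 1.5 past 60 kb. eCLIP reads per peak were 22, 7.75, 10.1, 18.1, 8.13 and 5.20 over the same stretches. The eCLIP side was thus highest in the first 1 kb, from 3 peaks, and next highest between 40 and 50 kb, from 35. Past 50 kb both sides were lower, and the input lay close to the 1 read that is the least the folds can show.

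ZNF184 replicate 2 had few peaks to set beside these. Its 3 peaks in the first 1 kb had a median log2 fold of 1.93, also above the stretch that follows. From 1 to 20 kb it had 13 peaks with a median log2 fold of 0.61, 5 of them below input, close to the 0.78 of replicate 1. From 40 to 50 kb it had 3 peaks with log2 folds of -0.07, 0.03 and 1.20, where replicate 1 ran from 0.71 to 4.25 over 35 peaks. From 50 to 60 kb it had 2 peaks, at 0.61 and 2.61, from 7 eCLIP reads in all. Between 40 and 60 kb replicate 1 had at least 757 eCLIP reads in peaks and replicate 2 at least 17. Each list holds only the places where peaks were called in that library, so positions without a replicate 2 peak have no replicate 2 fold.

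**Figure D3:**
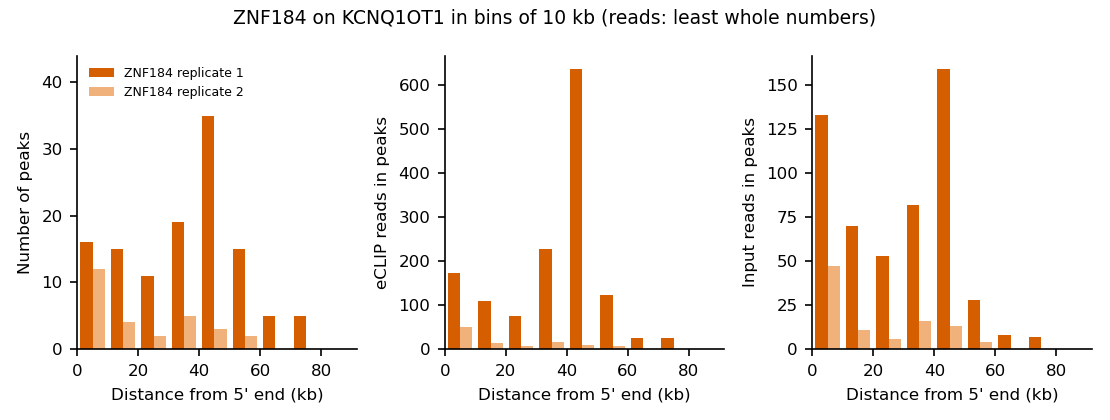
Bars give, per 10 kb of distance from the 5' end (x axis), the number of ZNF184 peaks, their eCLIP reads and the input reads in them (y axes), for replicate 1 (dark) and replicate 2 (light). Between 40 and 50 kb replicate 1 has 35 peaks with at least 635 eCLIP reads and replicate 2 has 3 with at least 10.

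NUMA1, RANGAP1 and RNF219 had few peaks past 40 kb. NUMA1 replicate 1 had 31 peaks from 1 to 20 kb with a median log2 fold of 1.43, 18 from 20 to 40 kb with 1.35, and 2 past 40 kb with 1.93. In its replicate 2 there were 16 with a median of 1.67, 2 with 2.46, and 1 past 40 kb at 3.25. RANGAP1 replicate 1 had 24 with 1.56, 7 with 1.88 and 1 at 2.15, and its replicate 2 had 19 with 1.42, 5 with 1.42 and 0. RNF219 had 25 with 1.07, 9 with 1.07 and 1 at 1.07. In both NUMA1 libraries and RANGAP1 replicate 1, the values past 40 kb were above those from 1 to 20 and 20 to 40 kb. They came from 1 or 2 peaks per library, with 3 to 6 eCLIP reads. RANGAP1 replicate 2 had no peak past 40 kb. VIM replicate 1 had 3 of its 5 peaks between 40 and 50 kb, with log2 folds of 2.86 to 3.86 from 9 eCLIP reads in all.

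Replicates met at few places on the RNA. Counting peaks that shared at least 1 nt, NUMA1 had 9 pairs, RANGAP1 7, ZNF184 7, AIFM1 0 and VIM 0. In NUMA1 these were 16.4% of the replicate 1 peaks and 47.4% of those of replicate 2 (whole lists 25.1% and 36.9%). In RANGAP1 they were 20% and 26.9% (whole lists 38.9% and 40.1%). In ZNF184 they were 5.79% and 25.0% (whole lists 34.4% and 40.02%).

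Where they met, NUMA1 and RANGAP1 replicates had like folds. The 9 NUMA1 pairs differed by -0.40 to 0.77 on the log2 scale (replicate 1 minus replicate 2), with replicate 1 higher in 5. The 7 RANGAP1 pairs differed by -0.68 to 0.90, with replicate 1 higher in 2. All 16 pairs lay above input in both replicates. Replicates share the input, with 34 and 34 input reads summed over the NUMA1 pairs and 18 and 18 over those of RANGAP1. Like folds are thus in part built in, and are not read as independent agreement.

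The strongest NUMA1 pair by eCLIP reads was at 10.2 kb (chr11:2710989-2711120), with 18 reads in replicate 1 and 8 in replicate 2, each beside 8 input reads, and log2 folds of 2.02 and 1.67. The strongest of RANGAP1 was at 9.96 kb (chr11:2711241-2711301), with 9 and 4 reads, each beside 4, and log2 folds of 1.73 and 0.83. Depth was 1.76 times as high in NUMA1 replicate 1 as in its replicate 2, and 1.20 times in RANGAP1. The numbers of peaks on the RNA differed 2.89-fold and 1.35-fold in the same order, and those of the whole lists 1.50-fold and 1.03-fold. Per 10000 deposited peaks, NUMA1 had 12.3 and 6.38 on the RNA, so its replicates did not share a level by that count.

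In ZNF184, replicate 1 was higher in 6 of 7 pairs, by a median of 1.57 and at most 2.35 on the log2 scale. The pairs had 143 eCLIP reads in replicate 1 and 38 in replicate 2, with 32 and 28 input reads, and depth was 1.12 times as high in replicate 1. Agreement differed along the RNA. At 0.634 kb both had 6 reads beside 4 (log2 folds 1.03 and 1.20). At the 5' end, at 0.162 kb, the folds were 3.67 and 3.20, from 28 and 6 reads. At 0.374 kb they were 3.45 and 1.93, from 32 and 10 reads. The pair at 43.1 kb (chr11:2678067-2678110) had 25 reads beside 7 in replicate 1 and at least 5 beside 8 in replicate 2, at 2.28 and -0.07. At 47.8 kb (chr11:2673421-2673460) it was 17 beside 3 against 3 beside 2, at 2.95 and 1.20. At 30.8 kb it was 25 beside 8 against 5 beside 6, at 2.09 and 0.35. Of the 16 significant peaks of replicate 1, 2 met a peak of replicate 2, both within the first 1 kb. The like share over all significant peaks of its list is not given here, so 2 of 16 is not read as particular to this RNA.

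**Figure D4:**
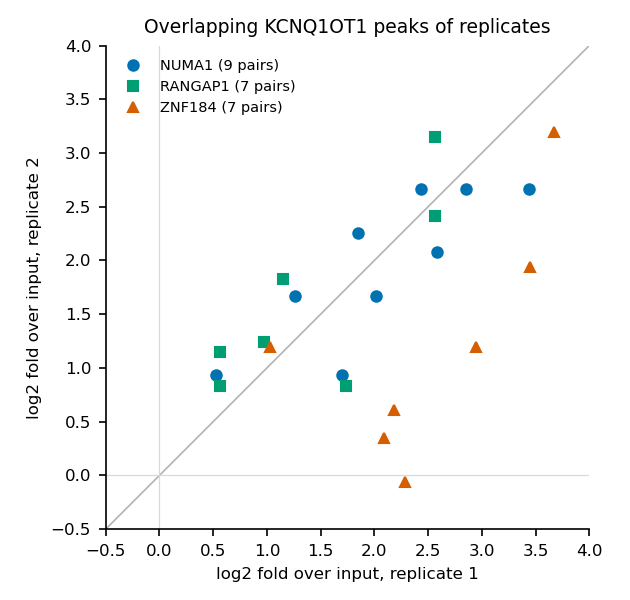
Each point is a pair of overlapping KCNQ1OT1 peaks, with the log2 fold over input in replicate 1 on the x axis and in replicate 2 on the y axis; the diagonal marks equal folds. The 9 NUMA1 and 7 RANGAP1 pairs lie within 0.90 of the diagonal, and 5 of 7 ZNF184 pairs lie more than 1.5 to its right.

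Most places on the RNA had peaks of a single protein. Merged at 1 nt of overlap, the 335 peaks formed 235 sites, of which 184 had peaks of 1 protein, 31 of 2, 17 of 3 and 3 of 4. None had more than 4. Like counts over the whole lists are not given here, so these are not read as particular to this RNA. Sites with at least 2 proteins were 15 of 56 in the first 10 kb (26.8%), 21 of 50 from 10 to 20 kb (42%), 10 of 64 from 20 to 40 kb (15.6%), 5 of 55 from 40 to 60 kb (9.09%) and 0 of 10 past 60 kb. Such sites need a peak from outside ZNF184 replicate 1. These numbered 79 from 0 to 10 kb, 70 from 10 to 20 kb, 23 from 20 to 30 kb and 29 from 30 to 40 kb. From 40 to 50 kb they numbered 11, and from 50 to 60 kb 2. The shares are therefore not read as a trend along the RNA. The 3 sites of 4 proteins were at 0.399, 1.17 and 4.51 kb from the start. They are named because they had the most proteins, after their values were seen.

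The site at 0.399 kb (chr11:2720752-2720906) had peaks in 5 libraries. Log2 folds were 3.60 in VIM replicate 1 (5 reads beside 2), 2.43 and 0.43 in NUMA1 replicate 1, 1.42 in AIFM1 replicate 2, and 3.45 and 1.93 in ZNF184. The site at 1.17 kb (chr11:2719995-2720117) had 6 libraries, with 3.03 in VIM replicate 2, 1.26 and 1.67 in NUMA1, 0.56 and 1.25 in RANGAP1 and 0.61 in ZNF184 replicate 2. The site at 4.51 kb (chr11:2716662-2716769) had 1.67 in NUMA1 replicate 2, 1.56 in RANGAP1 replicate 1, 1.49 in RNF219 and -0.26 in ZNF184 replicate 1. ZNF184 replicate 1 was above input at 0.399 kb and below it at 4.51 kb. Folds are not ranked across libraries here, since the medians of their lists differ.

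Of the 121 sites with a ZNF184 replicate 1 peak, 90 had a peak in no other library. Between 40 and 60 kb it was 43 of 50, and in the first 40 kb 37 of 61. The other libraries had few peaks to meet past 40 kb, so these 2 shares are not read as a difference along the RNA. Without that library the RNA had 147 sites. The like count over its whole list is not given here, so 90 of 121 is not read as particular to this RNA. Over that list, 34.4% of peaks met a peak of ZNF184 replicate 2, and on the RNA 5.79% did. That share is limited by the 28 replicate 2 peaks on the RNA. In the other direction, 25.0% of replicate 2 peaks on the RNA met a replicate 1 peak, and 40.02% over the replicate 2 list.

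Peaks kept to the annotated RNA and its strand. On the plus strand of the same interval, which is the strand of KCNQ1, the 11 lists held 0 peaks. On the minus strand, 0 peaks lay within 50 kb of either end. The first peak on the RNA began 0.009 kb from the annotated start, and the next deposited peak before the start was 142 kb away. The nearest plus-strand peaks were 205 and 204 kb away from the 2 ends. The sources used here do not say whether the peak search covered sequence outside annotated genes, so a lack of peaks there does not show a lack of reads.

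The ZNF184 replicates were also set side by side at other places with many ZNF184 peaks. Over 126 tiles of 50 kb on 1 strand that held at least 50 ZNF184 peaks in all, the ratio of replicate 1 to replicate 2 peaks had a median of 1.14 (5th to 95th percentile 0.731 to 2.04). On KCNQ1OT1 it was 4.32. A single tile was higher, at 4.67 (chr1:16250001-16300000, plus strand, 56 and 12 peaks, median log2 folds of 1.70 and -0.41). By the difference of the median log2 folds, 1.57 on KCNQ1OT1, 4 tiles were at least as high, up to 2.11 in that same tile. By the excess of significant peaks, 16 beside 0 on KCNQ1OT1, 1 tile was at least as high. The tile chr13:23900001-23950000, minus strand, had 17 beside 0, with median log2 folds of 3.03 and 1.27. The comparison was chosen after the ZNF184 values were seen, and tiles are shorter than the RNA.

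Other places were ranked by how like KCNQ1OT1 their pattern over the libraries was. The pattern was the median log2 fold minus that of the list, over 11 libraries that share inputs in pairs. KCNQ1OT1 itself had 2 peaks in AIFM1 replicate 1 and 2 in VIM replicate 2, so its medians there rest on fewer peaks than the tiles had. Of 219 tiles of 50 kb with at least 5 peaks in every library, the most alike by Pearson's r was chr19:13850001-13900000, plus strand, at 0.580. Next were chr3:15050001-15100000, minus strand, at 0.522 and chr1:46050001-46100000, plus strand, at 0.485. In the tile on chromosome 3 ZNF184 was at 1.15 and -0.72 relative to its lists, with replicates on opposite sides as on KCNQ1OT1. In the other 2 tiles both ZNF184 replicates were below their lists.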

How the data were processed

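Per the submitters' processing notes, reads were handled with cutadapt, STAR, GATK, Picard and SAMtools on hg19; the sources used here do not name versions, the peak caller or how duplicates were removed. The 11 deposited lists, 1 per eCLIP library with no pooling, gave each peak a -log10 p and a log2 fold over the size-matched input, both the authors' deposited values. Inputs had no list of their own. Sample titles gave the groups and the replicate numbers (AIFM, NUMA and RANGAP there are AIFM1, NUMA1 and RANGAP1 in the series design). No more is said of how replicates were grown.

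Folds of a library are ratios of whole numbers times a constant, input depth divided by eCLIP depth (0.534 to 4.84), which frequent folds and the deposited p-values gave. Reads were taken as ratios of at most 200 to at most 50 reads, to within 1e-07 on the log2 scale. For each choice, p came from an exact test, or from chi-square with Yates' correction where all reads and expected counts reached 5. Reads were settled where exactly 1 choice gave the deposited p to within 0.005 on the log10 scale. This settled 294 of 335 peaks on the RNA. The step was tested on simulated lists. Total reads per library are unknown.

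Members and lists were chosen with earlier results of these data known. Sites were to be named where both replicates or most proteins were significant. As no site was significant in more than 1 library, the 17 significant peaks, the sites of most proteins and some replicate pairs are named instead, after their values were seen. Comparisons with MALAT1, NEAT1 and imprinted neighbours, and sequences, needed an hg19 annotation or genome and were not analysed here. Python 3.11.15, numpy 2.4.6, pandas 2.3.3 and scipy 1.17.1 were used. Alternatives covered the thresholds, membership, overlap, bins, input reads, peak length and single replicates.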

Additional observations from a re-analysis of the deposited data

How the results depend on the processing

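Of 146 alternative values, 123 moved by less than the replicate SD, the counting interval or the ratio of counts allowed. Many of these could not move, as given below. For ZNF184, whose SD was 1.16, that limit is wide. The number of significant peaks followed the thresholds. In ZNF184 replicate 1 (16) it was 31 with a log2 fold of at least 2, 1 with at least 4 and 6 with a -log10 p of at least 5, and in NUMA1 replicate 1 (1) it was 2, 0 and 0. The share of peaks above input was lower with a log2 fold of at least 1: 70.9% and 78.9% in NUMA1, 71.4% and 80.8% in RANGAP1, 62.9% in RNF219, 57.1% in AIFM1 replicate 2 and 80.2% and 42.9% in ZNF184. With peaks of at least 20 nt, VIM lay 0.71 above its lists. With reciprocal overlap of 50%, RANGAP1 had 4 replicate pairs and ZNF184 2. With at least 5 input reads in both, NUMA1 had 4, RANGAP1 0 and ZNF184 2. Among bins of 5 kb with at least 3 peaks, the RANGAP1 replicate 1 bin with the highest median began at 0 kb instead of 30 kb. Without ZNF184 replicate 1, chosen after seeing the data, there were 214 peaks, 1 significant peak and 147 sites. No region was significant in both replicates under any of the thresholds or overlaps tried. That outcome was fixed in advance. No limit below a -log10 p of 3 was tried, and no replicate 2 peak on the RNA exceeded 2.02. These values are among the 123 and say nothing about robustness. The same holds for significant counts in every library without a peak at a -log10 p of 3, which had to stay at 0. It holds for membership as well, since no peak crossed an end of the RNA or lay near it outside. AIFM1 and VIM had no replicate pairs, so stricter overlap could not change their counts either. Leaving out a replicate moved ZNF184 relative to its lists between -0.68 and 0.96. With at least 5 input reads, ZNF184 lay at -0.54 relative to its lists, where it was at 0.14, and NUMA1 at 0.0028, where it was at 0.40. For the other proteins that limit left a library without peaks, as a limit of 10 did for every protein. No paired analysis was possible because no result came from a test. Few reads per peak limit every fold given.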
